A study of Mus musculus with 6 samples.

Results

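Stromal cells taken straight from mouse lymph node (LN) were set against 2 LN stromal cell lines, BLS4 and BLS12, after their lymphotoxin β receptor (LTβR) had been stimulated in culture. The comparison used 3 of the 6 arrays of the series, chosen by their labels. LN stroma was 1 array of the podoplanin-positive, VCAM-1-positive cells that lacked CD45 and CD31, sorted from enzyme-digested nodes of adult C57BL/6JJcl mice. Antibody-treated BLS4 and antibody-treated BLS12 were 1 array each, from lines of BALB/cA origin grown in DMEM with serum and given 1 µg/ml of a goat polyclonal LTβR agonistic antibody for 2 days. The same lines without antibody (1 array each) served as the start point of the response, and 1 array of C57BL/6JJcl embryonic fibroblasts (MEF) is quoted beside single genes. The age of the MEF embryos was given as a range of embryonic days. MEF thus differed in age from LN stroma, which came from adult mice, and a part of age in the MEF values was not tested. LN stroma and the treated lines differed in strain, in culture and in having been established as a line, and in this comparison these factors cannot be told apart. No group had a control antibody. The labels do not say how many mice or nodes entered the sort, or whether a line was 1 clone.

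LTβR is a receptor of the TNF receptor superfamily carried by stromal cells. Its ligand, membrane lymphotoxin, is made by lymphocytes and lymphoid tissue inducer cells. Signalling runs through the kinase NIK (Map3k14) to the RelB and p52 form of NF-κB, and also through the RelA form, which switches on its own inhibitors. In lymphoid organs this pathway is known for inducing adhesion molecules such as VCAM-1 and MAdCAM-1 and the homeostatic chemokines CXCL13, CCL19 and CCL21, which place B and T cells. Reticular fibroblasts of the T zone also supply IL-7 and build the collagen conduit network.

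Values are log2 of the deposited intensity, with 1 entry per gene. All differences are LN stroma minus a treated line, so a positive one means a higher level in LN stroma. As LN stroma and each treated line had a single array, no spread was measured within either group. A gene was placed by size, only where both lines fell on the same side, with no p-value. A limma fit over 5 arrays, which assumes that the lone LN array varies like the lines, was an alternative and gave 333 genes at least 4-fold higher and 33 lower in LN stroma at an adjusted p under 0.05. Of 19938 genes, 12675 lay at or above the array median in at least 1 of the 3 arrays and were compared. A gene could pass this filter through LN stroma alone, so counts over a list describe the members that passed. Median intensities were 55.8 in LN stroma, 54.1 in treated BLS4 and 56.3 in treated BLS12, or 5.80, 5.76 and 5.82 on the log2 scale. The table carried no detection call, so sizes are approximate where the lower level lay below these medians. Arrays were of bulk RNA, in which fewer cells of a type and less RNA per cell cannot be told apart.

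The sorted fraction carried its gate markers. Pdpn was 10.20 in LN stroma, against 11.68 and 11.15 in treated BLS4 and BLS12, and Vcam1 was 11.90 against 10.57 and 11.27. Ptprc, which encodes CD45, lay below the median at 5.70 in LN stroma, and Pecam1, which encodes CD31, lay above it at 6.44, against 4.82 and 4.96 in the treated lines. Of 14 blood endothelial markers with an entry, 13 reached the array median in LN stroma, against 4 in treated BLS4 and 3 in treated BLS12. The 14 together had a summed intensity of 10.83 on the log2 scale in LN stroma, against 9.39 and 9.32. Of the 13 compared, 6 were at least 2-fold above both lines (46.2%, beside 7.25% of all genes). The other 7 lay within 2-fold of both (53.8%, beside 74.7%), among them Cdh5 at 5.97 against 5.25 and 4.99. Sele, an endothelial selectin and the furthest above, was 8.90 against 5.44 and 5.35. B cell and T and NK cell markers passed the intensity filter in only 2 genes each, with all 4 of those within 2-fold in both lines. Cd79a was 4.78 in LN stroma, below its median. Prox1 and Lyve1, markers of lymphatic endothelium, were also below it, at 4.88 and 5.71.

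The LN stroma array held transcripts from outside the reticular programme at high levels. Of 18 compared genes of pancreatic and salivary acinar cells, 16 were at least 4-fold above both lines (88.9%, beside 3.44% of all genes). The list was added after these values had been seen. The summed intensity of the 22 listed genes with an entry was 14.00 in LN stroma, against 9.94 and 9.77. Examples were Bpifa2, a salivary secretory protein, at 11.84 against 4.62 and 4.50, the amylase Amy1 at 10.55 against 3.57 and 3.67, and Cpb1, a pancreatic carboxypeptidase, at 10.50 against 4.08 and 3.88. Immediate early and dissociation stress genes were summed at 16.83, against 14.26 and 13.93. The part that carried-over gland RNA, endothelial RNA or the digestion and sort had in the other differences was not tested.

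LN stroma exceeded both antibody-treated lines by at least 4-fold in 436 genes (3.44% of the 12675). It was exceeded by both in 82 (0.647%) and lay within 2-fold of both in 9468 (74.7%). The median difference of all genes was -0.10 against BLS4 (SD 1.03 across genes) and -0.08 against BLS12 (SD 1.1). Against a single line the counts were larger, with 539 genes higher in LN stroma than in BLS4 and 625 than in BLS12, while 182 were higher in BLS4 and 211 in BLS12 than in LN stroma. A difference of at least 16-fold in both lines was met by 108 genes above and 2 below. In 219 of the 436 genes both lines lay below their array median, and in 40 of the 82 LN stroma did. Without the stress and gland lists, a recount made after seeing the data, 396 genes stayed above and 82 below.

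**Figure D1:**
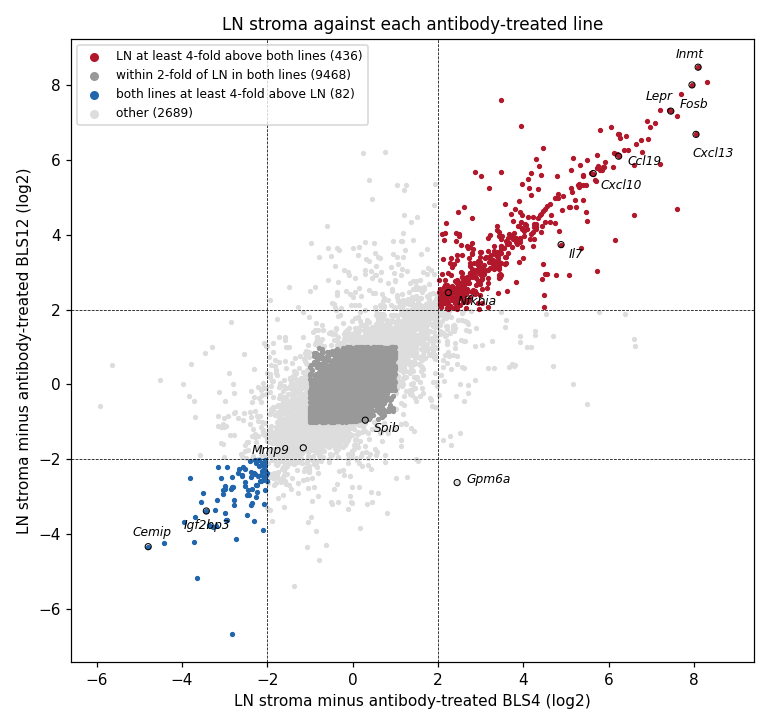
Difference of LN stroma from antibody-treated BLS4 (horizontal axis) and from antibody-treated BLS12 (vertical axis), in log2 units, for the 12675 genes compared; each point is 1 gene and dashed lines mark 4-fold. The 436 genes at the upper right, Inmt and Lepr among the furthest out, were higher in LN stroma than in both lines, the 82 at the lower left were lower, and Gpm6a lay at 2.45 and -2.63, on opposite sides in the lines.

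What the antibody left unmatched began with markers of reticular and adventitial fibroblasts. Inmt, a methyltransferase marking CD34-positive and T zone stroma, was 12.45 in LN stroma, against 4.35 in treated BLS4 and 3.98 in treated BLS12. Lepr, the leptin receptor, was 11.76 against 3.80 and 3.76. Lum, the collagen-binding proteoglycan lumican, was 12.01 against 3.70 and 3.93. In all 3 genes both treated lines lay below their array median, as did both unstimulated lines and MEF, and the smaller of the 2 differences was 8.10, 7.96 and 8.08. C7, the terminal complement component, was 11.65 against 3.95 and 3.90, and Abca8a, a lipid transporter, was 11.71 against 4.11 and 4.53. Scn7a, a sodium channel, was 10.81 against 3.73 and 3.83. Penk, the enkephalin precursor, was 10.24 against 3.87 and 3.97. Srpx and Ecm2, a pair of extracellular proteins, were 11.66 against 5.38 and 5.09, and 10.52 against 3.77 and 3.99. Ctsc, a lysosomal protease, was 10.22 in LN stroma, against 3.77 and 3.96, and 7.99 in MEF. Dsc3, a desmosomal cadherin of epithelia, belonged to the same range at 11.54 against 4.12 and 4.21. So did Cldn1, a tight junction protein, at 10.00 against 4.54 and 5.40. Of 11 compared epithelial and mesothelial markers, Cldn1 was the only 1 at least 2-fold above both lines (9.09%, beside 7.25% of all genes). In this list 4 lay within 2-fold of both (36.4%, beside 74.7%), and 1 was at least 2-fold higher in both lines (9.09%, beside 4.36%).

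**Figure D2:**
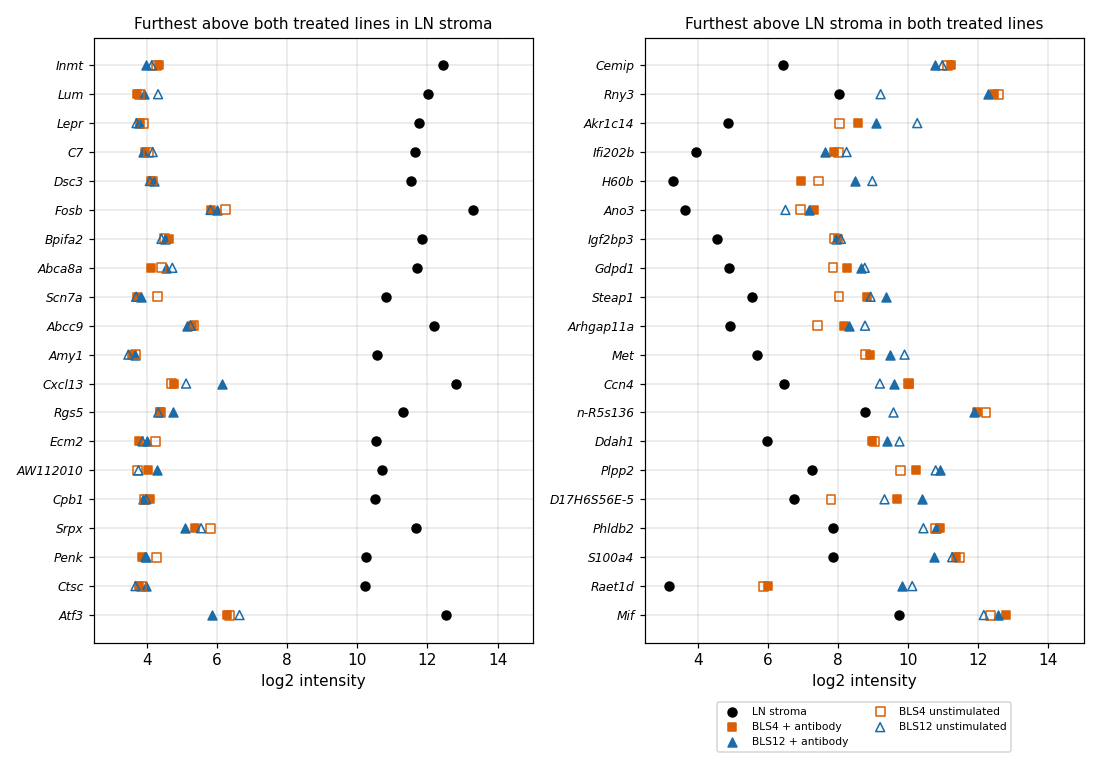
Log2 intensity of the 20 genes furthest above both treated lines in LN stroma (left) and of the 20 furthest above LN stroma in both treated lines (right); each marker is 1 array, filled for LN stroma and antibody-treated lines and open for unstimulated lines. On the left the 4 line arrays cluster between about 3.5 and 6.6, with LN stroma above 10 in every gene, and the treated markers lie close to the unstimulated ones except in Cxcl13 of BLS12.

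Of the 18 T zone and CD34-positive reticular markers compared, 9 (50%, beside 3.44% of all genes) were at least 4-fold above both lines. None was exceeded 4-fold by both lines, and the median differences were 2.03 and 3.22. Des, the intermediate filament desmin, was 11.12 against 5.41 and 5.69. Has1, a hyaluronan synthase, was 10.75 against 5.64 and 5.99, and Pi16, a marker of adventitial fibroblasts, was 8.95 against 5.51 and 5.72. Pdgfra, a growth factor receptor of fibroblasts, was matched and was 12.26 in LN stroma, against 12.19 and 12.38. Other markers split the lines. Dpt, dermatopontin, was 12.29 against 11.26 in BLS4 and 6.97 in BLS12, and Grem1, a BMP antagonist, was 9.50 against 11.54 and 8.47. Ch25h, the enzyme making 25-hydroxycholesterol, was 7.95, below treated BLS4 at 9.22 and above treated BLS12 at 5.87.

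Homeostatic chemokines stayed far below fresh stroma in the treated lines, except for Ccl25 (6.04 in LN stroma against 5.92 and 6.15) and, in BLS4, Cxcl12. Cxcl13, which attracts B cells, was 12.82 in LN stroma, against 4.77 and 6.14 in treated BLS4 and BLS12 and 4.69 and 5.11 in the unstimulated lines. Treated BLS12 lay above its array median, and LN stroma was still 103-fold above it. Ccl19, which attracts T cells and dendritic cells, was 12.49 against 6.25 and 6.39, with both unstimulated lines at 6.04. Its difference between treated and unstimulated lines was 0.28 (SE 0.140, adjusted p = 0.522 in limma), and both lines were above their medians in all 4 arrays. Cxcl14 was 8.34 against 5.49 and 5.31. Cxcl12, a retention factor for lymphocytes and plasma cells, was 12.40 against 11.34 and 9.19. In all, 3 of 5 compared members were at least 4-fold above both lines (60%, beside 3.44% of all genes). Ccl21a, without an entry of its own, was not analysed here.

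Cytokines that stroma supplies to lymphocytes were also higher in LN stroma. At least 4-fold above both lines were 6 of 21 compared members (28.6%, beside 3.44% of all genes). Il7, the survival factor for naive T cells, was 9.13 in LN stroma against 4.25 and 5.40, with 3.89 and 4.10 in the unstimulated lines. Tnfsf13b, the B cell survival factor BAFF, was 10.48 against 7.81 and 6.78. Flt3l, which sustains dendritic cells, was 9.68 against 6.21 and 6.43. None of the 4 line arrays reached LN stroma in these 3 genes. Il33, an alarmin, was 11.61 against 5.47 and 7.75, Il6 was 11.94 against 7.83 and 6.44, and Lif was 9.87 against 6.43 and 7.0. Tnfsf11, the ligand RANKL that marks marginal reticular cells, was nearer, at 8.52 against 7.22 and 7.35. Growth factors of the myeloid and epithelial lineages were nearer still, with Csf1 at 10.27 against 11.39 and 9.65 and Fgf7 at 10.33 against 11.59 and 10.25.

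Genes that mark follicular dendritic or marginal reticular cells had 3 of 12 compared members at least 4-fold above both lines (25%, beside 3.44% of all genes). They were Cxcl13, Cr2 and Bst1, and 8 of the 12 were at least 2-fold above both (66.7%, beside 7.25% of all genes). Fcer2a, Fcgr2b and Fcrls, also listed, lay below the array median in LN stroma and both treated lines. In LN stroma they were 4.59, 5.33 and 4.17. Cr2, a complement receptor of follicular dendritic cells, was 8.06 against 4.13 and 4.14, and Bst1, a surface ectoenzyme, was 10.37 against 5.87 and 7.42. Madcam1, the mucosal addressin, is also a marker of marginal reticular cells, and it was matched at 6.84 against 6.48 and 6.79, with 5.47 and 4.99 in the unstimulated lines. Its antibody difference was 1.40 (adjusted p = 0.0923 in limma), short of the threshold of 0.05.

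Of 19 perivascular and contractile genes compared, 7 were at least 4-fold above both lines (36.8%, beside 3.44% of all genes). Abcc9, the sulfonylurea receptor of pericyte potassium channels, was 12.18 against 5.29 and 5.13, and its channel partner Kcnj8 was 10.08 against 5.82 and 6.2. Rgs5, a pericyte regulator of G protein signalling, was 11.30 against 4.37 and 4.75, and Notch3 was 9.85 against 6.78 and 6.84. The pericyte markers Mcam and Cspg4 were nearer, at 7.62 against 6.09 and 6.30, and within 2-fold at 6.17 against 5.82 and 5.67. Myh11, smooth muscle myosin, was 9.54 against 5.90 and 5.78, and Synpo2, an actin-binding protein, was 9.36 against 5.93 and 5.30. Other contractile proteins were closer or lower in LN stroma. Acta2, smooth muscle actin, was 11.32 against 11.59 and 11.65, Tagln was 9.83 against 9.55 and 9.07, and Cnn2 was lower at 9.52 against 11.27 and 11.12.

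Extracellular matrix genes were mixed. Col1a1 was 13.23 in LN stroma against 12.33 and 12.38, and Col1a2 was 13.26 against 12.70 and 12.64. Both chains of type I collagen were thus within 2-fold. Col3a1, the collagen of reticular fibres, was 12.94 against 10.57 and 11.37, and the basement membrane collagen Col4a1 was 11.09 against 9.61 in each line. Of 37 collagens and reticular fibre proteins, 14 lay within 2-fold in both lines (37.8%, beside 74.7% of all genes). Another 13 were at least 2-fold above both (35.1%, beside 7.25%). At least 4-fold above both were 5 (13.5%, beside 3.44% of all genes), and none was as far below. The 5 were Col14a1 (12.07 against 5.84 and 5.39), Col15a1, Eln, Fbn2 and Tnxb. Lines exceeded LN stroma at least 2-fold in Col4a5 (6.65 against 8.26 and 8.25) and Col8a1 (6.13 against 8.06 and 9.49). Small leucine-rich proteoglycans had 5 of 11 members at least 4-fold above both lines (45.5%, beside 3.44% of all genes), Lum, Aspn, Podn, Omd and Ogn. Aspn was 9.87 against 3.78 and 4.07. Dcn, decorin, was matched only in BLS12, at 13.81 against 10.50 and 13.39. No matrix protease or inhibitor of 22 compared was 4-fold apart in both lines in either direction (0%, beside 3.44% and 0.647% of all genes). Within 2-fold of both lay 7 (31.8%, beside 74.7%). In 4, LN stroma was at least 2-fold above both lines (18.2%, beside 7.25%), and in 1 both lines exceeded it 2-fold (4.55%, beside 4.36%). Mmp2 split the lines, at 11.77 against 11.33 and 6.83.

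Complement genes had 5 of 13 members at least 4-fold above both lines (38.5%, beside 3.44% of all genes). C4b was 12.37 in LN stroma against 8.18 and 7.32, C2 was 11.20 against 6.65 and 8.25, and Serping1, the C1 inhibitor, was 13.40 against 8.93 and 10.17. C1s1, a serine protease of the C1 complex, was within 2-fold at 12.42 against 11.90 and 11.52. Cfb, factor B of the alternative pathway, was 11.60 against 8.12 and 9.67, with 6.59 and 6.05 in the unstimulated lines. The 2 treated arrays of Cfb lay above the 2 unstimulated ones and all 4 lay below LN stroma.

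Of 16 genes of antigen presentation compared, 7 lay within 2-fold in both lines (43.75%, beside 74.7% of all genes). At least 2-fold above both were 5 (31.25%, beside 7.25%), and none was 2-fold below. The MHC class II chains H2-Aa and H2-Ab1 were at least 4-fold above both lines, at 7.24 against 3.76 and 3.55, and 8.74 against 5.40 and 5.45. Among the class I and immunoproteasome members, Tap2 was 9.29 against 8.23 and 9.29, Psmb10 was 9.47 against 8.97 and 9.27, and Tapbp was 11.11 against 11.33 and 11.17. Psmb9 was 9.30 against 7.65 and 8.28, and Psmb8 was 8.58 against 6.98 and 7.91. H2-DMa, a class II chaperone chain, was within 2-fold at 5.91 against 5.72 and 5.40. Interferon-stimulated genes had 2 of 22 members at least 4-fold above both lines (9.09%, beside 3.44% of all genes) and 11 within 2-fold (50%, beside 74.7%). The 2 were Gbp3 (8.83 against 6.52 and 5.45) and Irf8 (8.85 against 6.23 and 6.24). Irf8 is known from myeloid cells, and the myeloid marker Ctss was 7.69 in LN stroma against 5.15 and 5.0, while Csf1r was within 2-fold at 6.02 against 5.73 and 5.65. Of 16 myeloid markers 6 passed the filter, and they did not run one way. Lyz2, a lysozyme, was lower in LN stroma at 5.73 against 7.84 and 9.63, and Cd14 was 7.85 against 7.09 and 9.73.

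The immediate early and dissociation stress list had 24 of 33 compared members at least 4-fold above both lines (72.7%, beside 3.44%). Fosb was 13.29 against 5.83 and 5.98, Nr4a1 was 13.19 against 7.12 and 6.32, and Atf3 was 12.53 against 6.29 and 5.85. These encode transcription factors known for rapid induction. The inflammatory chemokine Cxcl2 stood as high above the lines, at 10.45 against 4.56 and 4.64, and Cxcl1 was 12.62 against 8.92 and 8.66. The stress list and these chemokines were high on the same single array.

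**Figure D3:**
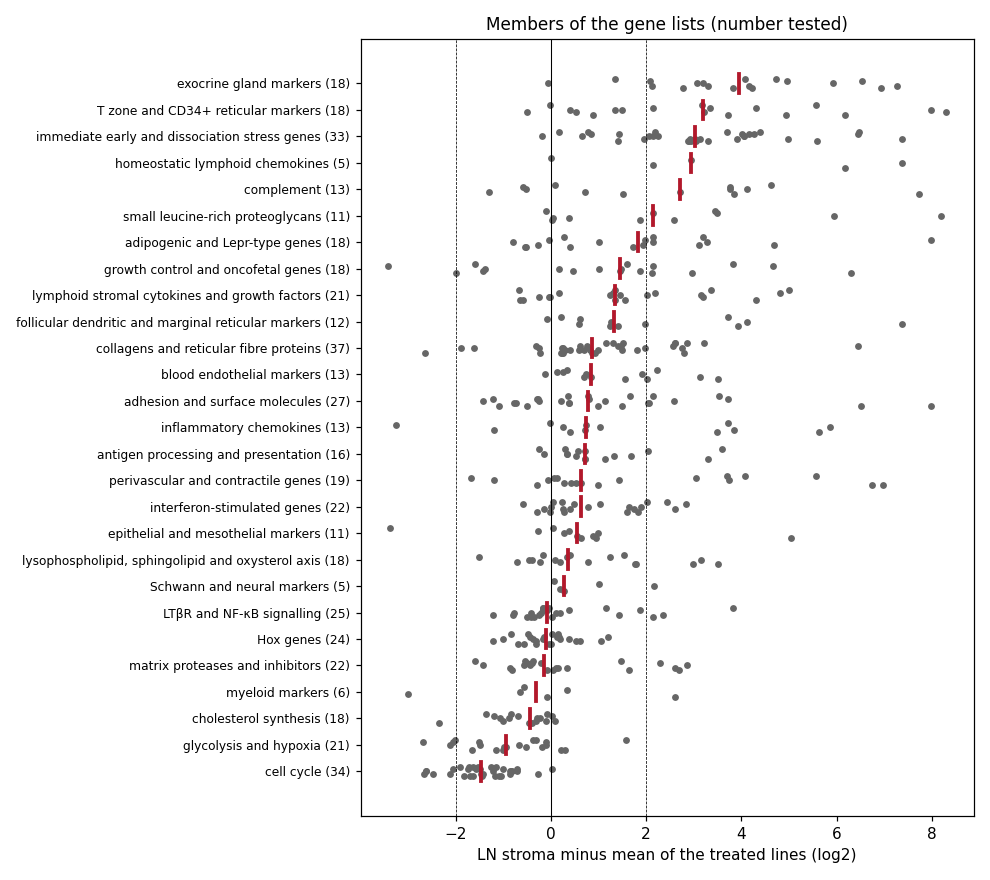
Difference of LN stroma from the mean of the antibody-treated lines, in log2 units, for the compared members of each gene list with at least 5 of them; each grey point is 1 gene, the red bar is the list's median, dashed lines mark 4-fold and the number compared stands in brackets. The LTβR and NF-κB list centres on 0 with a median of -0.09, while the T zone and stress lists have medians of 3.20 and 3.02 and the cell cycle list one of -1.46.

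The signalling pathway itself lay near the background of all genes in the share that was matched. Of 25 compared genes of LTβR and NF-κB signalling, 18 lay within 2-fold of LN stroma in both lines (72%, beside 74.7% of all genes). At least 2-fold above both lines were 6 (24%, beside 7.25% of all genes), and none was 2-fold below. The median differences were 0.10 and -0.20. Ltbr itself was 8.25 in LN stroma, against 8.67 and 8.55 in the treated and 8.78 and 8.74 in the unstimulated lines. Nfkb2, the precursor of p52, was 9.84 against 10.42 and 10.81 in the treated lines and 8.03 and 9.27 in the unstimulated ones. Relb was 8.64 against 8.30 and 8.92, with 7.43 and 7.60 unstimulated. Map3k14, Rela, Traf2 and Bcl3 were also within 2-fold in both lines. The 2 members at least 4-fold above both lines were Nfkbiz, which encodes the nuclear IκBζ (11.65 against 7.68 and 7.98), and Nfkbia, which encodes the inhibitor IκBα (12.83 against 10.59 and 10.38).

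Against this background the genes that answered the antibody were placed. In limma, with each line as its own control, 24 of 11988 genes rose with the antibody (0.2%) and 9 fell (0.0751%) at an adjusted p under 0.05, and 1396 had an unadjusted p under 0.05. With each array centred on its median 54 rose and 44 fell, and after quantile normalization 5 rose and 1 fell, so the balance of rises and falls depended on the scaling. Nothing in the labels says that the arrays of a line were separate cultures, and p-values measure only the spread between these samples. Before antibody, 20 of the 24 genes that rose lay at least 2-fold below LN stroma in both lines (83.3%). With it, 9 still lay at least 2-fold below in both lines, 10 lay within 2-fold, 2 lay at least 2-fold above and 3 were mixed. Among all 12675 genes the treated lines lay at least 2-fold below LN stroma in 919 (7.25%) and above in 552 (4.36%), with 1736 mixed. The treated arrays entered both the call and the place with antibody, and the unstimulated arrays both the call and the place before it. These shares were thus not tested. The share of all genes that lay below LN stroma before antibody is not given here.

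**Figure D4:**
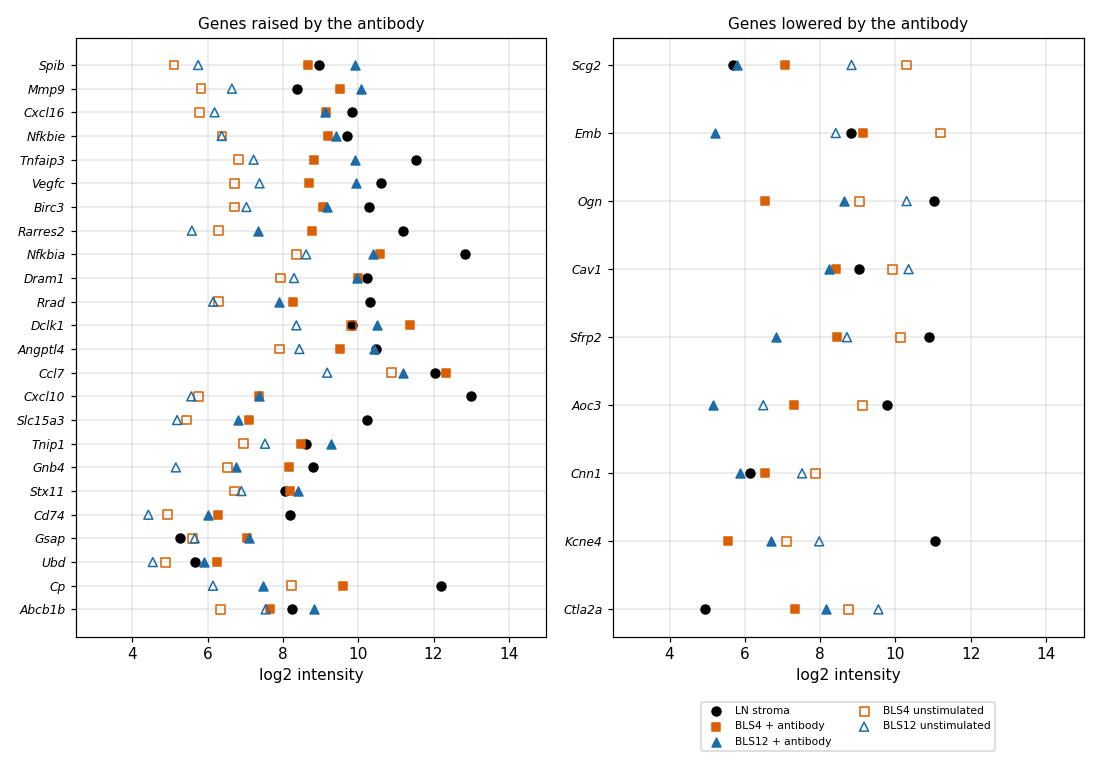
Log2 intensity of the 24 genes raised (left) and the 9 genes lowered (right) by the antibody in limma; each marker is 1 array, filled for LN stroma and antibody-treated lines and open for unstimulated lines. In the left panel the filled line markers stop short of the black LN stroma point in Nfkbia, Cxcl10 and Slc15a3, lie within 1 log2 unit of it in Spib, Cxcl16 and Dram1 and pass it in Mmp9 and Gsap.

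Genes that reached the level of fresh stroma were led by Spib. Spib, an Ets-family transcription factor, was 8.95 in LN stroma, against 8.66 and 9.91 in treated and 5.10 and 5.75 in unstimulated BLS4 and BLS12. LN stroma lay between the 2 treated arrays, far above both unstimulated ones, and MEF were at 4.69. The antibody difference was 3.86 (SE 0.188, adjusted p = 0.00573 in limma). Cxcl16, a transmembrane chemokine, was 9.83 against 9.13 and 9.11, with 5.77 and 6.18 unstimulated. Nfkbie, the inhibitor IκBε, was 9.69 against 9.19 and 9.41, with 6.38 and 6.37 unstimulated. In both, the treated arrays ended less than 1 log2 unit below LN stroma. Dram1, a lysosomal protein of the autophagy pathway, was 10.23 against 9.98 and 9.96. Tnip1, a partner of Tnfaip3, was 8.62 against 8.47 and 9.26. Ccl7, a monocyte chemoattractant, was 12.03 against 12.34 and 11.19, with 10.88 and 9.17 unstimulated. Angptl4, Stx11, Ubd and Abcb1b completed the 10 that lay within 2-fold with antibody. Ubd in BLS4 and Abcb1b in BLS12 already lay within 2-fold of LN stroma without it. Ubd, a ubiquitin-like modifier, was low in all, at 5.65 against 6.24 and 5.91.

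Genes that rose and stayed below LN stroma included inhibitors of NF-κB signalling and a chemokine. Cxcl10, an interferon-inducible chemokine, was 13.00 in LN stroma, against 7.36 and 7.36 in treated and 5.75 and 5.56 in unstimulated lines. It rose by 1.70 (SE 0.143, adjusted p = 0.0305 in limma), which left 5.64 and 5.63 log2 units to LN stroma. Nfkbia, which encodes IκBα, was 12.83 against 10.59 and 10.38, with 8.35 and 8.62 unstimulated. Tnfaip3, a ubiquitin editor, was 11.53 against 8.83 and 9.92, with 6.82 and 7.22 unstimulated. For these 3 genes the treated arrays lay between the unstimulated ones and LN stroma. Slc15a3, a lysosomal peptide transporter, was 10.23 against 7.11 and 6.82. Rarres2, chemerin, was 11.18 against 8.76 and 7.34, and Cp, the ferroxidase ceruloplasmin, was 12.20 against 9.59 and 7.46. Birc3, the ubiquitin ligase cIAP2, came closest at 10.28 against 9.06 and 9.16. Cd74, the MHC class II invariant chain, was 8.19 against 6.28 and 6.00, and Rrad, a small GTPase, was 10.32 against 8.26 and 7.89.

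Genes carried past fresh stroma were few. Mmp9, gelatinase B, was 8.36 in LN stroma, against 9.52 and 10.06 in treated and 5.82 and 6.64 in unstimulated lines. Gsap, a γ-secretase activating protein, was 5.25 against 7.06 and 7.10, with 5.61 and 5.65 unstimulated. Mmp9 thus lay below LN stroma without antibody and above it with antibody in both lines, whereas Gsap started within 2-fold. The mixed genes were Vegfc, Dclk1 and Gnb4. Vegfc, the lymphatic growth factor, was 10.62 against 8.69 in treated BLS4 and 9.93 in treated BLS12.

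The 9 genes that fell with the antibody did not move as a body toward fresh stroma. In 4 the treated lines lay at least 2-fold below LN stroma. Sfrp2, a secreted Frizzled-related protein, was 10.88 in LN stroma, against 8.45 and 6.83 in treated and 10.13 and 8.71 in unstimulated lines. Ogn, the proteoglycan osteoglycin, was 11.02 against 6.53 and 8.63, with 9.05 and 10.30 unstimulated. In both genes the treated array of each line lay further from LN stroma than the unstimulated array of that line. The same held within each line for Aoc3, the vascular adhesion protein VAP-1, at 9.77 against 7.31 and 5.15, with 9.12 and 6.49 unstimulated, and for Kcne4, a potassium channel subunit, at 11.06 against 5.57 and 6.68. Cav1, caveolin-1, was within 2-fold with antibody, at 9.04 against 8.41 and 8.22, with 9.92 and 10.35 unstimulated. Cnn1, calponin, was 6.15 against 6.53 and 5.88, with 7.88 and 7.52 unstimulated. Ctla2a, a cysteine protease inhibitor, stayed above LN stroma at 4.93 against 7.33 and 8.17. The mixed pair was Emb and Scg2. Scg2, secretogranin II, was 5.68 against 7.08 and 5.79, with 10.30 and 8.84 unstimulated.

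Promoters are shown for 5 of these genes, 3 that reached LN stroma and 2 that fell short, and for Ccl19, which stayed far below it. Each window runs from 250 bases before to 50 after the RefSeq start site (GRCm38.p6), 5′ to 3′ on the gene's strand. Capitals mark matches of either strand to the 10-base NF-κB consensus.
Spib (chr7:44532022-44532321, minus strand): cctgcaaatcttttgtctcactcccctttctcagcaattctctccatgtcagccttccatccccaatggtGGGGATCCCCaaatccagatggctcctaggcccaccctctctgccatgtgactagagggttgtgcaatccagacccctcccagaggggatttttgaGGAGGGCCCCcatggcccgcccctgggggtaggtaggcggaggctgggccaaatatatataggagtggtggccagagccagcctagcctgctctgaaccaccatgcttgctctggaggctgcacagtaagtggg
Nfkbie (chr17:45555450-45555749, plus strand): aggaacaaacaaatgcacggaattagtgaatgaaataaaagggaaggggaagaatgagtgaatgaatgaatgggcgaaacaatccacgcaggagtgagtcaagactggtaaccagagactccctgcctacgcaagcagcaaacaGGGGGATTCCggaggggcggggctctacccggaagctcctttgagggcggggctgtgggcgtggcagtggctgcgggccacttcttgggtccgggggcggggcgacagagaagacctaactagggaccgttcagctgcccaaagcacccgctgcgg
Tnip1 (chr11:54962891-54963190, minus strand): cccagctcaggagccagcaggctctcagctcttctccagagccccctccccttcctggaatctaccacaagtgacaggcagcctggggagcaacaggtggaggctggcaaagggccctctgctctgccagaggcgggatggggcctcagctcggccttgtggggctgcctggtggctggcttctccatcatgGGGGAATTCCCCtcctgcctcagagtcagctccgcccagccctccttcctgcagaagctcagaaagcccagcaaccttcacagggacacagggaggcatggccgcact
Nfkbia (chr12:55492598-55492897, minus strand): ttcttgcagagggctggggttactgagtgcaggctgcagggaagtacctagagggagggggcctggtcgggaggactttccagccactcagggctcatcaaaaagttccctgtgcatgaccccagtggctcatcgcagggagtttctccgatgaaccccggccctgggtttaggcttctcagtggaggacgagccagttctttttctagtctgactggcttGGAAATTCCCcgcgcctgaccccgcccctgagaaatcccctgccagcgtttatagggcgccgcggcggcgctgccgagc
Cxcl10 (chr5:92348840-92349139, minus strand): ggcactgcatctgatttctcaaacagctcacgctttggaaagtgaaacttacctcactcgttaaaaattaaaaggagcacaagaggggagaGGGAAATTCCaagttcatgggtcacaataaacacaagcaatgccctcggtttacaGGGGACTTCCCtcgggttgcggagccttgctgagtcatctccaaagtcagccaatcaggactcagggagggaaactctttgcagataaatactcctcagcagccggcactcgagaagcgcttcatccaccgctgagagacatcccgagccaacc
Ccl19 (chr4:42756316-42756615, minus strand): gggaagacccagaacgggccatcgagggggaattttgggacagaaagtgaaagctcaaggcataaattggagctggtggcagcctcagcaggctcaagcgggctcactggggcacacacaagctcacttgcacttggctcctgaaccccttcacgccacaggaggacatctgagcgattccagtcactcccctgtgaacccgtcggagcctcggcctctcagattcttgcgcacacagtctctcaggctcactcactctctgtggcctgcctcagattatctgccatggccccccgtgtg
Counted from the start site, matches began 180 and 84 bases before it in Spib, 106 in Nfkbie and 29 in Nfkbia. Tnip1 held a run of overlapping matches that began 58, 57 and 56 bases before it, and Cxcl10 held matches at 159 bases and, overlapping each other, at 104 and 103. The Ccl19 window held none of these letters, nor did that of Cxcl13 (chr5:95956689-95956988, plus strand). Of 24 genes raised by the antibody, 15 had an entry in the promoter table, and 7 of those held a match (46.7%). A match occurred in 3 of 5 of them with levels below LN stroma, 4 of 7 within 2-fold and 0 of 1 above it. The 5 raised genes shown were all among the 7 with a match. Windows of Dram1 and Stx11, which reached LN stroma, and of Birc3 and Cp, which fell short, held no match. Among the 9 lowered genes 1 of 8 held one. Of all 27025 genes with a RefSeq promoter, 9.55% held a match, as did 12.7% of the 10067 compared here that had an entry and 8.46% of all 32851 windows. A match is a description of letters, not of bound factor.

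By size alone, 52 genes (0.434%) were at least 2-fold higher with antibody in both lines and 28 (0.234%) lower. Of the 52, the treated level lay below LN stroma in 11, within 2-fold in 20 and above in 10. Genes whose place changed were counted next. From at least 2-fold below LN stroma in both unstimulated lines, 41 genes (0.323%) came within 2-fold in both treated lines, and 15 of these had at least a 2-fold antibody difference in both. Besides the genes above, they held Birc2, the ubiquitin ligase cIAP1 (9.45 against 8.76 and 10.32, unstimulated 7.17 and 7.80), and Il15ra, which presents IL-15 (7.68 against 7.57 and 8.39, unstimulated 6.10 and 6.14). Serpina3n, a secreted serpin, was 11.75 against 11.40 and 11.81, with 8.23 and 10.24 unstimulated. From within 2-fold to at least 2-fold above LN stroma, 30 genes (0.237%) were carried, 5 of them with at least a 2-fold antibody difference in both lines. Aoc1, a diamine oxidase, was 5.87 in LN stroma against 7.63 and 6.94, with 4.98 and 5.35 unstimulated, and Cbr3, a carbonyl reductase, was 6.93 against 8.78 and 9.61, with 7.56 and 7.04. Slc20a1, a phosphate transporter, and Adamts7, a matrix protease, were the others beside Gsap.

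In the other direction 42 genes (0.331%) came within 2-fold of LN stroma from above and 25 (0.197%) went from within 2-fold to at least 2-fold below it. Only 1 of the 42 and 3 of the 25 had at least a 2-fold antibody difference in both lines. Sterol synthesis enzymes stood among the 42: Cyp51 was 7.53 in LN stroma against 8.30 and 7.68, with 9.20 and 9.06 unstimulated, and Idi1 was 8.18 against 8.94 and 8.30, with 9.83 and 9.77 unstimulated. Neither passed in limma, with adjusted p = 0.0856 and 0.0931. Of 18 cholesterol synthesis genes compared, 11 lay within 2-fold of LN stroma in both treated lines (61.1%, beside 74.7% of all genes). At least 2-fold above LN stroma in both were 2 (11.1%, beside 4.36% of all genes). Of these, 1 was at least 4-fold above (5.56%, beside 0.647%), namely Sc5d at 7.66 against 9.96 and 10.05. Matrix genes stood among the 25, with Fbln5, an elastic fibre protein, at 10.70 in LN stroma against 9.18 and 8.48 and with 10.28 and 10.70 unstimulated. Col5a1 was 9.92 against 8.69 and 8.56, with 9.45 and 9.41 unstimulated.

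Adhesion molecules took no common course. Vcam1 was 11.90 in LN stroma, against 10.57 and 11.27 in treated and 9.83 and 10.93 in unstimulated lines. Icam1 was 10.49, close to treated BLS12 at 10.03 and far above treated BLS4 at 6.83, with 6.65 in unstimulated BLS4 and 8.38 in unstimulated BLS12. For Icam1 the 2 treated lines thus differed more from each other than LN stroma did from BLS12. Of 27 adhesion and surface molecules, 4 were at least 4-fold above both lines (14.8%, beside 3.44% of all genes) and 7 within 2-fold (25.9%, beside 74.7%). Vtn, vitronectin, was 11.95 against 5.16 and 5.74. Pdpn and Itgav were among those higher in the lines. Itgav, the integrin αV chain, was 9.65 against 11.37 and 10.78.

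Genes in which both treated lines exceeded LN stroma were led by Cemip. Cemip, which takes part in hyaluronan breakdown, was 6.42 in LN stroma, against 11.21 and 10.76 in treated and 11.12 and 10.97 in unstimulated lines. Igf2bp3, an oncofetal RNA-binding protein, was 4.56 against 7.99 and 7.94, and 8.41 in MEF. Met, the receptor of hepatocyte growth factor, was 5.69 against 8.90 and 9.48, with 8.84 in MEF. In these genes the cultured lines stood well above LN stroma with or without antibody, and so did MEF. S100a4, a calcium-binding protein of motile fibroblasts, was 7.84 against 11.35 and 10.75, and Mif, a cytokine-like enzyme, was 9.74 against 12.78 and 12.56. Ccn4, a matricellular protein, was 6.46 against 10.01 and 9.59, and Steap1, a metalloreductase, was 5.54 against 8.81 and 9.37. Rny3, a small noncoding RNA, was 8.02 against 12.45 and 12.27, and in unstimulated BLS12 it was 9.21.

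In some of these genes MEF also lay below the lines. Ifi202b, an interferon-inducible gene, was 3.94 in LN stroma and 3.64 in MEF, both C57BL/6JJcl, against 7.90 and 7.61 in the treated lines of BALB/cA origin. H60b, a ligand of the receptor NKG2D, was 3.29 in LN stroma and 5.11 in MEF, against 6.94 and 8.47. Nnt, a mitochondrial enzyme, was 7.99 in LN stroma and 8.94 in MEF, against 10.36 and 10.33. In these 3 genes both C57BL/6JJcl arrays lay below all 4 BALB/cA arrays, and only in Ifi202b were LN stroma and MEF alike. How many other genes had this order was not counted, and a part of strain in it was not tested. Ano3 showed another order, with 3.63 in LN stroma, 7.31 and 7.18 in the treated lines and 8.72 in MEF.

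Cell cycle genes were higher in the lines as a group. Of 34 compared, 23 were at least 2-fold above LN stroma in both treated lines (67.6%, beside 4.36% of all genes), and none was 2-fold below. The median differences were -1.23 and -1.60. Cdk1, the mitotic kinase, was 6.67 in LN stroma, against 8.74 and 9.86 in treated and 8.45 and 10.73 in unstimulated lines. Kif20a, a mitotic kinesin, was 5.71 against 8.22 and 8.43, and Bub1, a checkpoint kinase, was 3.88 against 6.15 and 6.57. Pcna, the replication clamp, was matched at 10.01 against 10.11 and 9.85. The size rule left the topoisomerase Top2a just outside the 82, at 5.67 against 7.67 and 8.98. At the upper edge Igf1 (9.76 against 7.52 and 7.75) was just inside the 436 and Sema5a (8.42 against 6.43 and 6.11) just outside.

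Glycolysis and hypoxia genes differed by line. Of 21 compared, 7 lay within 2-fold in both lines (33.3%, beside 74.7% of all genes). At least 2-fold above LN stroma in both treated lines were 6 (28.6%, beside 4.36% of all genes), and 1 was as far below in both (4.76%, beside 7.25%). Pfkl alone was at least 4-fold above LN stroma in both (4.76%, beside 0.647%), at 7.87 against 11.02 and 10.06. The median difference was -1.36 for BLS4 and -0.30 for BLS12. Bnip3, a mitophagy receptor, was 7.47 against 10.24 and 7.71. Hox genes, which record body position, had 20 of 24 members within 2-fold in both lines (83.3%, beside 74.7%) and none 4-fold apart in both. Growth control genes had 4 of 18 members at least 4-fold above both lines (22.2%, beside 3.44% of all genes). They were Igfbp5 (12.20 against 6.4 and 5.39), Igfbp3 (12.36 against 8.40 and 7.02), Mest and Igf1. Cdkn2a, an inhibitor of the cell cycle that rises in culture, was 7.03 against 9.15 and 8.90.

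Lipid mediators and fat-associated genes closed the comparison. Spns2, the exporter of sphingosine-1-phosphate, was 9.69 in LN stroma against 6.37 and 5.99, and Lpar4, a receptor of lysophosphatidic acid, was 7.60 against 4.80 and 4.09. They were the 2 of 18 lysophospholipid and oxysterol genes at least 4-fold above both lines (11.1%, beside 3.44% of all genes). Within 2-fold lay 9 (50%, beside 74.7%). S1pr3, another sphingosine-1-phosphate receptor, was 10.88 against 10.05 and 9.21, with 8.96 and 5.76 unstimulated. Of 18 adipogenic and Lepr-type genes, 4 (22.2%, beside 3.44% of all genes) were at least 4-fold above both lines, namely Lepr, Apoe, Ebf3 and Plin1. Apoe was 13.96 against 9.84 and 8.71, and Ebf3, a transcription factor of reticular and adipose stroma, was 10.00 against 7.83 and 5.97. Lpl, lipoprotein lipase, was matched at 11.61 against 11.47 and 11.19.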

How the data were processed

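RNA of 6 samples had been measured on single-colour Affymetrix arrays. The deposited table holds 1 intensity per entry and array on a linear scale, which the authors produced in Affymetrix Expression Console 1.1, per the submitters' processing notes, while the algorithm and annotation build are not given in the sources used here. Of 35557 entries, 21789 named 1 gene, 1621 several and 12147 none. Here log2 was taken with no further scaling, and the entry with the highest mean over 6 arrays was kept for each of 19938 genes (999 had several). Depth has no meaning for arrays, whose number limits the precision.

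LN stroma and each treated line had 1 array, so their differences were counted by size (4-fold in both lines, or within 2-fold). The intensity filter asked for at least 1 of 3 arrays at or above its median. The antibody response was fitted with limma 3.58.1 (lmFit, eBayes, two-sided, cell line as a block) in R 4.3.3 on the 4 line arrays, over 11988 genes with at least 2 of 4 arrays at or above the median and with Benjamini-Hochberg adjustment at 0.05. It had 1 residual degree of freedom, 4.59 prior ones and a prior SD of 0.151. It was checked on simulated data with known changes. Same-numbered arrays share a cell line by their labels, which gives the pairing.

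The comparison, gene lists (31) and named genes were chosen with earlier results of these data known. Named were the 20 genes furthest apart in each direction, all antibody calls, up to 10 that changed place, a followed set and up to 6 members per list and direction. Other genes, such as matched list members, were picked after their values were seen. Promoters are RefSeq's for GRCm38.p6. Alternatives covered scaling, filters, entries per gene, fold, leaving out a line and limma over 5 arrays.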

Additional observations from a re-analysis of the deposited data

Results flagged for a closer look

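Gpm6a, a neuronal membrane glycoprotein, was the 1 gene of 12675 at least 4-fold apart from LN stroma in opposite directions in the treated lines. LN stroma stood at 7.16, against 4.71 in treated BLS4 and 9.79 in treated BLS12, differences of 2.45 and -2.63 log2 units. Unstimulated BLS4 was at 4.47 and unstimulated BLS12 at 11.78. The difference between the lines' distances from LN stroma was not tested, as each had 1 array.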

How the results depend on the processing

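The 436 genes higher and the 82 lower in LN stroma kept to within 1.5 times under centring, quantile normalization, mean of entries and no filter. Centring retained 433 and 81 of them and quantile normalization 436 and 79. At 8-fold 217 were higher and 13 lower, and limma over 5 arrays, in which the lone LN array is assumed to vary like the lines, gave 333 higher (318 of the 436) and 33 lower (29 of the 82). Leaving out 1 treated line gave 539 to 625 higher and 182 to 211 lower. Genes within 2-fold numbered 16612 without the filter and 4834 with a filter at the upper quartile.

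Antibody calls depended on the setting. Raised and lowered genes numbered 54 and 44 after centring, 5 and 1 after quantile normalization, 38 and 16 without the filter and 52 and 28 by size. Without the replicate block, that is without the cell line in the model, limma called 0 and 0, with 241 genes at an unadjusted p under 0.05. Raised genes below LN stroma were 1 after quantile normalization. Those within 2-fold were 24, 3 and 20 after centring, after quantile normalization and by size, and those above LN stroma 9, 1 and 10. Lowered genes below LN stroma were 18, 0 and 16, those within 2-fold 11, 0 and 5, and those above 0 after quantile normalization. Why these counts moved was not tested. No named gene or list that was called reversed its sign. Of 275 named genes, 52 moved by more than the spread between the lines after quantile normalization, 11 after centring and 6 with the mean of entries.

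With 1 LN array, no statement covers the spread between sorts or mice, and small differences below the array median carry no order.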

Other observations

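Entries that name several genes or none took no part in the comparisons. Of 874 compared entries with several genes, 50 were at least 4-fold higher in LN stroma than in both treated lines and 10 lower. Of 4846 entries with no gene, 84 were higher and 46 lower, beside 467 and 89 of 13895 entries with 1 gene. Which transcripts the entries without a gene measure was not analysed here.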
